A study of Mus musculus with 3 samples.

Results

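The 8 genes described here make up the signalling cascade of the main olfactory epithelium: Gnal, Adcy3, Cnga2, Cnga4, Cngb1, Ano2, Rtp1 and Rtp2. They were taken as a fixed list by name, not by any value in these data, and all 8 had a feature among the 32285 genes counted. They were measured by single-cell RNA-seq in 3 libraries of the vomeronasal organ (VNO), a paired chemosensory organ at the base of the nasal septum that borders other nasal epithelium. All 3 came from male mice on a mixed background of C57 BL/6J and 129P2/OlaHsd. The control was OMPCre heterozygous at postnatal day 10 (P10). The P10 mutant was double heterozygous, OMPCreR26AP2e, and the 3-month mutant had that same genotype as an adult. Cre came from the locus of Omp, the olfactory marker protein gene, in every library, and in the mutants it switched on a Rosa26 transgene for the transcription factor AP-2ε, encoded by Tfap2e, in cells that had begun to express Omp. Omp is used by the sensory neurons of the main olfactory epithelium as well as by those of the VNO, so Cre is not limited to one of these neuron types. Each group had 1 library, so no test between libraries was possible and no p-value is given, and genotype, age and library cannot be told apart. The number of animals per library is not given in the sources used here.

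In olfactory sensory neurons an odorant bound to an Olfr receptor activates the G protein whose alpha subunit is encoded by Gnal. That subunit turns on adenylyl cyclase, encoded by Adcy3, and the cyclic AMP it makes opens a cyclic nucleotide-gated channel built from the products of Cnga2, Cnga4 and Cngb1. Calcium that enters through this channel opens the chloride channel encoded by Ano2, which amplifies the current. Rtp1 and Rtp2 encode proteins that help Olfr receptors to reach the cell surface. Vomeronasal sensory neurons (VSNs) use another route: receptors of the V1R family (Vmn1r genes, apical neurons with Gnai2) or of the V2R family (Vmn2r genes, basal neurons with Gnao1) signal through phospholipase C and the channel TRPC2, whose gene, without a feature of that symbol, is not analysed here.

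In GRCm38, the build of the files, Adcy3 (ENSMUSG00000020654) spans chr12:4133103-4213525 on the plus strand and Ano2 (ENSMUSG00000038115) chr6:125690419-126040126 on the plus strand. The pore-forming channel subunit Cnga2 (ENSMUSG00000005864) lies at chrX:71991849-72010218 on the plus strand, Cnga4 (ENSMUSG00000030897) at chr7:105404568-105408742 on the plus strand and Cngb1 (ENSMUSG00000031789) at chr8:95239045-95306585 on the minus strand. Rtp1 (ENSMUSG00000033383, plus strand) and Rtp2 (ENSMUSG00000047531, minus strand) lie on the same chromosome, at chr16:23429133-23433960 and chr16:23925548-23932394. Gnal is ENSMUSG00000024524.

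Promoter windows from RefSeq (GRCm38.p6, from 250 bases before to 50 after the start) matched 6 of the 8 genes by symbol. Olf/Ebf factors, which take their name from olfactory neurons, bind palindromic sites whose centre can be written CCCNNGGG, and these letters were looked for alone and with T before and A after them. Both forms read the same on either strand, and they were chosen with the expression values known. The longer form was in 0 of the 9 windows of these genes and in 297 of 32851 windows of all genes (0.904%). The core was in 5 of the 9 windows and in at least 1 window of 5 of the 6 genes (Cnga2, Cnga4, Cngb1, Ano2 and Rtp2, not Adcy3), against 4491 of all windows (13.7%). A match is a description of the letters, not evidence of a bound site. Cnga2, Cnga4 and Rtp2 are shown because, of 2 channel genes, 1 stayed with the Olfr receptors in these libraries and the other did not, and Rtp2 was found across all receptor families. The capitals mark the core, at bases 185 to 192, 275 to 282 and 49 to 56 of the windows at chrX:71991599-71991898 (plus strand), chr7:105404318-105404617 (plus strand) and chr16:23930745-23931044 (minus strand).
Cnga2: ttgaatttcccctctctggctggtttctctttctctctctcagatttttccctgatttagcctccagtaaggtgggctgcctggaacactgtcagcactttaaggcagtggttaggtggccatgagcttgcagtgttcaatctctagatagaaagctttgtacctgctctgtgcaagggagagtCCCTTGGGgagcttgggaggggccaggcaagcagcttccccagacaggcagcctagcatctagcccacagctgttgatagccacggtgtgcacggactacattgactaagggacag
Cnga4: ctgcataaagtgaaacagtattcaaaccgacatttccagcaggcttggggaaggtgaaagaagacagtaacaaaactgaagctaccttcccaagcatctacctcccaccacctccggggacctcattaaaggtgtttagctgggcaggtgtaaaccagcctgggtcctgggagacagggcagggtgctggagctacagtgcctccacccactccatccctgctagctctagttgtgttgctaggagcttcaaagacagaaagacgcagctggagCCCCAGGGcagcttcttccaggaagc
Rtp2: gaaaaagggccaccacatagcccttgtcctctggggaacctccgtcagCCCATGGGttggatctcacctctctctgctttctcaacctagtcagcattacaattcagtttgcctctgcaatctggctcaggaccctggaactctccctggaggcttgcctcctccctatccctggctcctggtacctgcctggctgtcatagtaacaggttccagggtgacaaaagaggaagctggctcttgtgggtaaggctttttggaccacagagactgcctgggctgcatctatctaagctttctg

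Barcodes with 200 to 9000 genes and at most 10% mitochondrial unique molecular identifiers (UMIs, each a counted molecule) were kept, 15711 of 27359. The control had 4795 kept barcodes, the P10 mutant 3956 and the 3-month mutant 6960, with median UMIs of 10236, 10766 and 5010. The neuron clusters held 634, 265 and 282 of them, and their median depth of 4804 UMIs in the 3-month library was well below the 13043 and 15103 of the P10 libraries. Pairs of libraries shared 4, 9 and 9 barcode sequences. Of the 42 clusters, 4 were neuronal. Clusters 9 and 3 were named from general neuron markers, and clusters 19 and 4 from immature neuron markers. Cluster 9 is called mature here, a stage that its marker name does not give. Cluster 3 was deep and also carried sustentacular (supporting cell) markers, and cluster 4 was shallow. The transgene matched its labels. In V1R-dominant neurons Tfap2e stood at 9.32 CPM (counts per 1000000 UMIs) in the control, 494 in the mutant at P10 and 195 at 3 months.

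No cluster met the markers of an olfactory sensory neuron, so receptor genes, which are not among the 8, were used to sort the neurons. A neuron with at least 5 receptor UMIs, of which at least 80% came from 1 family, was called Olfr-, V1R- or V2R-dominant. Olfr-dominant neurons numbered 34 in all. They were 19 of 344 classed neurons in the control (5.52%, 95% Clopper-Pearson interval 3.36 to 8.49), 8 of 137 in the mutant at P10 (5.84%, 2.55 to 11.2) and 7 of 178 in the 3-month mutant (3.93%, 1.60 to 7.93). With a mitochondrial limit of 5%, the control kept 11 of its 19, the P10 mutant 2 of its 8 and the 3-month mutant 6 of its 7. The intervals overlap widely, and all intervals given here cover counting error only, since neither cells nor UMIs of 1 library stand for animals. V1R-dominant neurons were 252, 93 and 94, and V2R-dominant neurons 73, 36 and 77. The known partners of each class sat where these classes place them: in the control Gnai2 was at 2363 CPM in V1R- and 203 in V2R-dominant neurons, and Gnao1 at 50.9 and 550.

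The 8 genes divided into 3 patterns. Cnga2 and Gnal were at or near 0 in V1R- and V2R-dominant neurons and stood highest in Olfr-dominant ones, of which a minority held them. Rtp1, Rtp2, Ano2, Cnga4 and Cngb1 were present in neurons of all 3 receptor families and near 0 in most other cells. In the Olfr-dominant neurons of the P10 mutant, Cnga4 and Cngb1 each rested on 1 UMI. Adcy3 was low in VSNs and was found at a like or higher level in several cells that are not neurons.

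**Figure D1:**
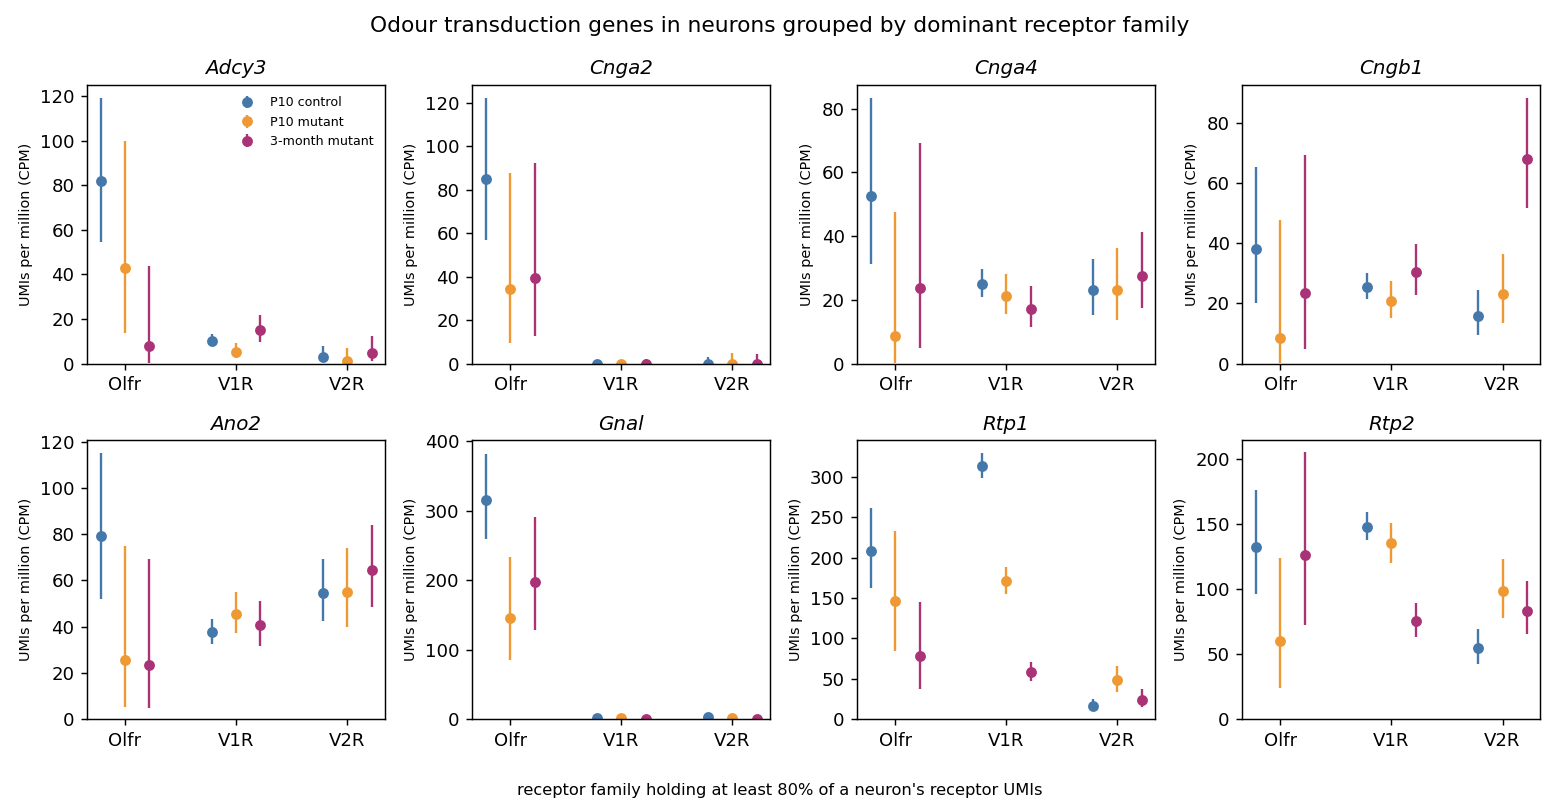
Pooled level of each gene, in CPM, in Olfr-, V1R- and V2R-dominant neurons of each library, with exact Poisson 95% intervals. Cnga2 and Gnal stood apart in the Olfr-dominant neurons of every library, while Rtp1 in the control reached 314 CPM in V1R-dominant neurons against 208 in Olfr-dominant ones.

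The pore-forming subunit Cnga2 was at 84.9 CPM (interval 56.9 to 122) in the Olfr-dominant neurons of the control, from 29 UMIs in 7 of 19 neurons. In the P10 mutant it was at 34.3 (9.34 to 87.8), from 4 UMIs in 1 of 8 neurons, and in the 3-month mutant at 39.4 (12.8 to 92), from 5 UMIs in 2 of 7. Not 1 Cnga2 UMI was found in a V1R- or V2R-dominant neuron of any library. A count of 0 allows up to 3 counts, which is 0.320 CPM over the 439 V1R-dominant neurons and 1.04 CPM over the 186 V2R-dominant neurons, or shares of up to 0.683% and 1.61% of neurons with a UMI. This does not limit the share of neurons that express the gene, since even the Olfr-dominant neurons with Cnga2 held only 1 to 10 of its UMIs. Immune, stromal, glial and endothelial barcodes, used as the background for all members but Adcy3 and Cngb1, gave 1, 2 and 0 UMIs of Cnga2.

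Gnal, the G protein alpha subunit, was at 316 CPM (259 to 382) in the Olfr-dominant neurons of the control, 146 (84.9 to 233) in the mutant at P10 and 197 (128 to 291) at 3 months. These are 108, 17 and 25 UMIs in 7, 2 and 2 neurons. Both mutant levels rest on few cells: 16 of the 17 UMIs in the P10 mutant came from 1 neuron, without which the level was 9.37, and 18 of the 25 in the 3-month mutant came from 1 neuron, without which it was 63.4. In V1R-dominant neurons Gnal was at 1.12, 1.32 and 0 CPM, and in V2R-dominant neurons at 3.17, 1.28 and 0. Low Gnal counts were also spread over cells that are not neurons, for example 2.42, 4.50 and 0.634 CPM in horizontal or basal epithelial cells, so that 48.2%, 13.7% and 28.4% of all Gnal UMIs of the kept barcodes were in Olfr-dominant neurons. For Cnga2 these shares were 90.6%, 66.7% and 41.7%. At 3 months, neurons with too few receptor UMIs to class held 27 Gnal UMIs (39.8 CPM) and 5 of Cnga2.

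Adcy3, the cyclase, was at 82.0 CPM (54.5 to 119) in the Olfr-dominant neurons of the control, 42.8 (13.9 to 100) in the mutant at P10 and 7.88 (0.200 to 43.9) in the 3-month mutant, the last from 1 UMI. In V1R-dominant neurons it was at 10.2, 5.30 and 14.9 and in V2R-dominant neurons at 3.17, 1.28 and 4.77, against 11.3, 9.50 and 6.61 in the immune, stromal, glial and endothelial barcodes, which for this gene are no background since some of them carried it. At 3 months the V1R-dominant level without cluster 3, which carries sustentacular markers, was 2.10. Sustentacular cells of the 3-month library had 36.8 CPM from 204 UMIs, smooth muscle cells or pericytes had 18.9, 17.1 and 14.2, fibroblasts 14.4, 17.3 and 14.0, and mast cells or basophils of the control 57.8 from 21 UMIs.

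Rtp1, a receptor transport gene, was highest in V1R-dominant neurons of both P10 libraries: 314 CPM (299 to 329) in the control, 171 (155 to 189) in the mutant at P10 and 58.5 (47.7 to 71.0) in the 3-month mutant. V2R-dominant neurons had 15.8 (9.68 to 24.5), 48.5 (34.3 to 66.5) and 23.9 (14.6 to 36.9), and Olfr-dominant neurons 208 (162 to 262), 146 (84.9 to 233) and 78.8 (37.8 to 145). In both mutants the intervals of V1R- and Olfr-dominant neurons overlapped, so their order there is within counting error. The interval of V1R- and of V2R-dominant neurons did not meet in any library, and they lay closest together in the 3-month mutant. An Rtp1 UMI was found in 77.0%, 75.3% and 41.5% of V1R-dominant neurons and in 8.22%, 19.4% and 7.79% of V2R-dominant ones, and in 2.14%, 0.690% and 0.206% of background barcodes, whose median depths of 5616, 7465 and 5173 UMIs were lower than those of the P10 neurons. Thinned to 2000 UMIs a barcode, the shares of V1R-dominant neurons were 45.1%, 22.1% and 15.6%. Background levels were 2.87, 0.684 and 0.287 CPM. Among mature neurons alone (cluster 9) the V1R-dominant level of Rtp1 was 494, 250 and 127 CPM and the V2R-dominant level 23.1, 73.6 and 16.0. Of the 15 UMIs behind the 23.1, 11 came from 1 neuron.

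Rtp2 spread more evenly. V1R-dominant neurons had 148, 135 and 75.1 CPM, V2R-dominant neurons 54.7, 98.2 and 83.5, and Olfr-dominant neurons 132, 60 and 126, against a background of 1.48, 0.471 and 0.287. Its order between the VSN classes turned at 3 months, where V2R-dominant neurons were the higher, within counting error. Without cluster 3 that order was not seen: the 3-month values were 117 and 80.3 CPM.

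Ano2, the chloride channel, and the channel subunits Cnga4 and Cngb1 were found in both VSN classes of every library. Ano2 was at 37.6, 45.5 and 40.7 CPM in V1R-dominant and at 54.7, 54.8 and 64.5 in V2R-dominant neurons. Cnga4 was at 25.0, 21.2 and 17.2 in V1R-dominant and at 23.0, 23.0 and 27.5 in V2R-dominant neurons. Olfr-dominant neurons had 79.1, 25.7 and 23.6 CPM of Ano2 and 52.7, 8.57 and 23.6 of Cnga4. These came from 27, 3 and 3 UMIs of Ano2 and 18, 1 and 3 of Cnga4, so the mutant values are near the floor. The modulatory subunit Cnga4 was nearly absent elsewhere, with a background of 0.224, 0.128 and 0 CPM.

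Cngb1 was at 25.5, 20.8 and 30.4 CPM in V1R-dominant neurons and at 15.8, 23.0 and 68.0 (51.5 to 88.1) in V2R-dominant neurons, the last being the highest value of any receptor class and library. Olfr-dominant neurons had 38.1, 8.57 and 23.6, from 13, 1 and 3 UMIs. Cngb1 was the only channel subunit of the 3 with a repeated signal outside neurons, at 12.1, 14.1 and 13.1 CPM in endothelial cells from 24, 47 and 45 UMIs. Without cluster 3 the 3-month values were 65.0 in V1R- and 76.2 in V2R-dominant neurons.

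Summed over the 8 genes, the level in Olfr-dominant neurons was 993 CPM (890 to 1104) in the control, 471 (355 to 613) in the mutant at P10 and 520 (402 to 662) at 3 months. V1R-dominant neurons had 562 (542 to 582), 400 (374 to 427) and 237 (214 to 261), and V2R-dominant neurons 170 (148 to 195), 250 (216 to 287) and 272 (238 to 310). Olfr-dominant neurons were the highest of the 3 classes in the control and at 3 months. In the P10 mutant their interval met that of V1R-dominant neurons, and the order turned under 4 alternatives: 427 against 475 CPM at the 5% mitochondrial limit, 381 against 433 with 60% from 1 family, 471 against 486 with each library clustered alone and 471 against 498 without cluster 3. With at least 10 receptor UMIs, which left 3 neurons, the Olfr-dominant value was 964. The 13 neurons of that library with mixed receptors had 537 CPM (461 to 622). Of their 177 UMIs of the 8 genes, 63 were Cnga4 UMIs of 1 barcode. V1R-dominant neurons at 3 months had 423 without cluster 3. Single neurons held a median of 4, 2 and 4 of the 8 genes when Olfr-dominant, 3, 3 and 2 when V1R-dominant and 1, 2.50 and 1 when V2R-dominant. Read from the genes instead, 190, 103 and 67 barcodes had UMIs of at least 3 of the 8, and 179, 95 and 66 of these were in neuron clusters. V1R-dominant neurons, the largest class, reached 3 of the 8 in 51.2%, 65.6% and 38.3%, Olfr-dominant neurons in 63.2%, 25.0% and 57.1% (12 of 19, 2 of 8 and 4 of 7) and V2R-dominant neurons in 16 of 73, 18 of 36 and 19 of 77.

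**Figure D2:**
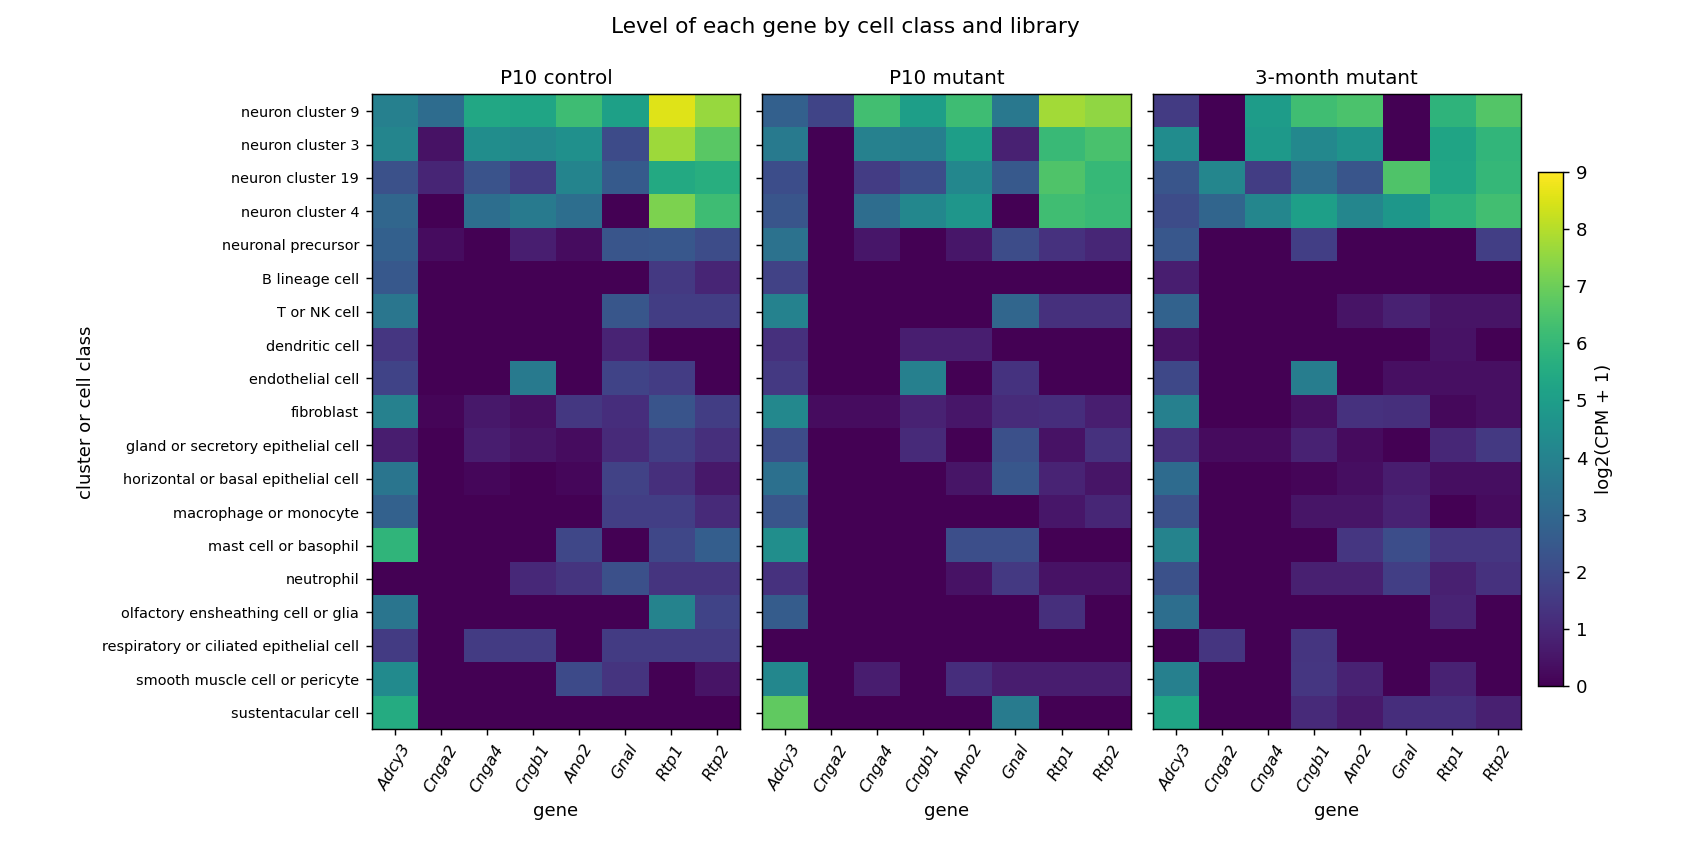
Colour gives the pooled level of each gene, as log2(CPM + 1), in each neuron cluster and named cell class of each library. Barcodes of unnamed clusters (512, 702 and 153) are not drawn. Named sustentacular cells were 9 and 33 barcodes in the P10 libraries and 328 at 3 months. Rtp1, Rtp2, Ano2 and Cnga4 were concentrated in neuron clusters, Cngb1 had a second, lower signal in endothelial cells, and Adcy3 ran across stromal, sustentacular and mast cells.

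The genes found in all receptor families were higher at each later step in the P10 libraries, with precursors, cluster 19 and cluster 9 taken as the steps. Rtp1 in the control went from 4.42 CPM in neuronal precursors to 43.5 in immature neurons (cluster 19) and 379 in mature neurons (cluster 9). Ano2 went from 0.232 to 15.5 and 73.2, Cnga4 from 0 to 3.95 and 41.4, and Cngb1 from 0.697 to 2.13 and 37.7. The P10 mutant had the same order for these 4 genes, with 212 CPM of Rtp1, 72.2 of Ano2, 77.4 of Cnga4 and 31.9 of Cngb1 in cluster 9. Of its 119 Cnga4 UMIs there, 63 came from 1 barcode with mixed receptors, without which the level was 37.6. At 3 months cluster 9 had 56.8, 87.2, 30.4 and 74.4 CPM against 39.3, 4.14, 2.07 and 8.28 in cluster 19, and the gap for Rtp1 was the smallest of the 4. Rtp2 was at 194, 182 and 95 in cluster 9 and at 48.7, 63.9 and 62.1 in cluster 19. The clusters were formed with these 8 genes left out. Cluster 4, shallow and also named from immature neuron markers, was not among the steps.

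Olfr-dominant neurons were compared with V1R- and V2R-dominant neurons together, and a gene with at least 20 UMIs over both sides was called higher at a ratio of 4 or more. This was so for 3 of the 8 genes in the control, where 1.52% of all genes were called, for 1 of 6 in the mutant at P10 (1.29%) and for 1 of 7 in the 3-month mutant (1.40%). In the control Gnal was 210-fold higher (110 to 450), Adcy3 9.21-fold (5.66 to 14.7; 4.15 on the log2 scale without cluster 3), and Cnga2, with 29 UMIs against 0, at least 188-fold higher with the 0 taken as 3 counts over the group (lower 95% limit of the ratio 143). Gnal was the call in both mutants: 111-fold higher (36.2 to 454) at P10 and, with 25 UMIs against 0, at least 170-fold at 3 months (lower 95% limit 128). The P10 mutant call rested on the 1 neuron with 16 of the 17 UMIs: at the 5% mitochondrial limit, which leaves it out, the remaining 2 neurons had 0 UMIs of Gnal. Cnga2 fell under the minimum of 20 UMIs in both mutants, with 4 and 5. The other members did not reach 4-fold in the control. Cnga4 at 2.14 (1.24 to 3.50) and Ano2 at 1.93 (1.25 to 2.88) lay above 1, and Cngb1 was at 1.61, Rtp2 at 1.01 and Rtp1 at 0.808. With a 0 taken as 3 UMIs, the median log2 ratio of the members with 20 UMIs was 1.03, -0.98 and 0.20, against 0.11, 0.15 and 0.12 over all genes. Left without the genes at 0, which drops Cnga2 in the control and Gnal at 3 months, it was 0.95, -0.98 and -0.18.

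Other genes known from olfactory sensory neurons followed in part. Of 22 such partners, 4 of the 21 with 20 UMIs were called higher in the control, 1 of 18 in the mutant at P10 and 3 of 18 at 3 months. Of all genes, 1.52%, 1.29% and 1.40% were called higher. Lower calls among the partners were 1, 1 and 0. Stoml3, a stomatin-like membrane protein of their cilia, was 99.8-fold higher (81.0 to 124) in the control and 19.4-fold higher in the P10 mutant, where all 20 UMIs were in that same 1 neuron. In the 3-month mutant it had 45 UMIs against 0, at least 305-fold higher with the 0 taken as 3 counts. Of those 45 UMIs, 42 were in the 2 neurons with Cnga2. S100a5, a calcium-binding protein, was 979-fold higher (616 to 1660) in the control, where Cidea was 72.0-fold and Ric8b, an exchange factor for the Gnal protein, 8.49-fold higher. Nearly all of these S100a5 UMIs came from neurons with 457, 299 and 149 of them. Of the vomeronasal transduction list, 1 of 11, 0 of 9 and 1 of 10 were called higher: H2-M10.3 in the control, a class I-like molecule of basal VSNs, and Gng13 at 3 months. Lower calls of that list were 3, 2 and 4, where 11.9%, 17.2% and 15.2% of all genes were lower. Ano1, a calcium-gated chloride channel, was among them in every library, with 0, 0 and 1 UMIs against 174, 80 and 103, and the upper limit of its ratio was 0.416, 1.23 and 1.13. Of other adenylyl cyclases and olfactory-type G proteins 0 of 3, 0 of 2 and 0 of 2 were called higher, as of other cyclic nucleotide-gated channel and anoctamin genes, where Ano1 was the lower call, and of genes of other chemosensory cells. Gnai2, the apical VSN G protein, stayed at ratios of 0.476, 0.730 and 1.13 in Olfr-dominant neurons over VSNs.

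The 34 Olfr-dominant neurons were then split by Cnga2, a split made after the values were seen and given with no test. Of the 34, 10 had a Cnga2 UMI. In 9 of these 10, 1 Olfr gene gave at least 80% of the Olfr UMIs and at least 20 UMIs, the 1 receptor gene per cell known for olfactory sensory neurons. They held a median of 6.5 of the 8 genes (2 to 8), and 4 control neurons held all 8. Gnal was found in 8 of the 10, Stoml3 in all of them (up to 168 UMIs), and Gnai2 at 0 or 1 UMI in each. The other olfactory neuron markers used to name clusters were found less evenly. Emx2 was in 10, Cidea, Pde1c and Kirrel2 each in 7, S100a5 and Umodl1 each in 6, Slc24a4 in 1 and Acsm4 in 0. Emx2 and Umodl1 did not set these neurons apart: in the 24 without Cnga2 they were in 23 and 20. There Pde1c was in 13, Kirrel2 in 6, Stoml3 in 3, Cidea in 2, S100a5 in 1, and Slc24a4 and Acsm4 in 0. The leading receptors in the control were Olfr1441 (398 UMIs, with 3 of Cnga2 and 24 of Gnal), Olfr124 in 2 neurons (160 and 84 UMIs, with 6 and 5 of Cnga2 and 25 of Gnal in each), Olfr1274-ps (61, with 10 and 17) and Olfr1509 in 2 neurons (22, with 2 and 10, and 25, with 2 and 0). In the P10 mutant it was Olfr281 (42, with 4 and 16, in a barcode with 9.42% mitochondrial UMIs), and in the 3-month mutant Olfr1264 (60, with 3 and 7) and Olfr124 (113, with 2 and 18).

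The 24 Olfr-dominant neurons without Cnga2 held a median of 2.00 of the 8 genes. Cnga2 is itself 1 of the 8, so the split in part sets these medians. Median depth also differed, at 19988 UMIs with Cnga2 and 15637 without. In 10 of them a single Olfr gene reached 20 UMIs, and the values were of another kind: Gnal was in 1 of the 10, Gnai2 had a median of 51.5 UMIs (0 to 82), Rtp1 was found in all 10 and Rtp2 in 9. Their receptors were Olfr556 (166 UMIs), Olfr769 (155), Olfr640 (137), Olfr460 (56) and Olfr1024 (41) in the control, Olfr878 (154) and Olfr769 (78) in the P10 mutant, and Olfr78 in 2 neurons of cluster 3 (76 and 71) and Olfr155 (44) in the 3-month mutant. The Olfr1024 neuron was the exception with Gnal, at 5 UMIs beside 55 of Gnai2. The remaining 14 had no leading receptor over 12 UMIs, lay in the immature cluster 19 in 13 cases, and held up to 17 Olfr genes and at most 3 of the 8. Emx2, a transcription factor of the olfactory lineage, was found in 13 of these 14. Gnai2 was also found in 13 of the 14, Gap43 in 12 and Stoml3 in 1. Meis2, a transcription factor of apical VSNs, was found in 19 of the 24 neurons without Cnga2 and in 0 of the 10 with it.

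**Figure D3:**
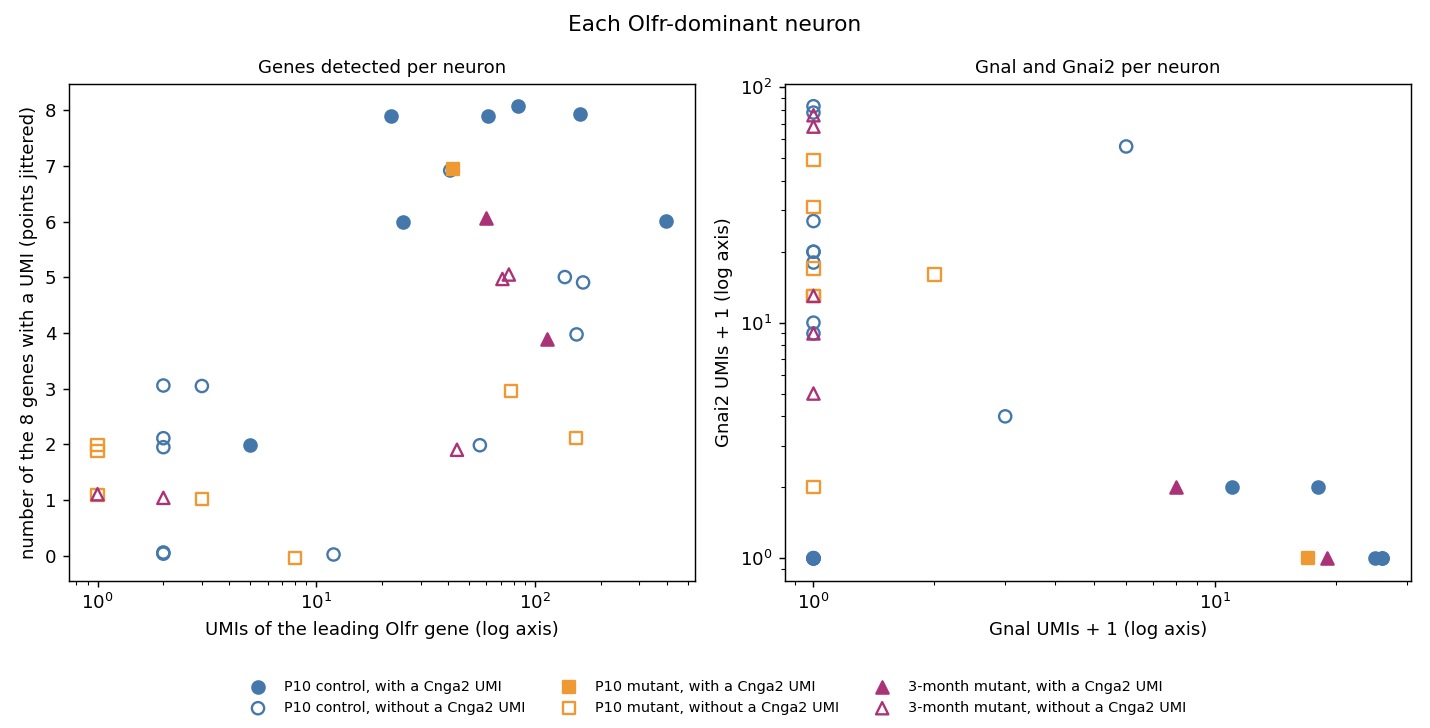
Each point is 1 Olfr-dominant neuron, filled where it had a Cnga2 UMI. Left, UMIs of its leading Olfr gene (log axis) against the number of the 8 genes detected. Right, Gnal against Gnai2, each as UMIs plus 1 on log axes: the 10 neurons with Cnga2 lie at 0 or 1 UMI of Gnai2, and no neuron with more than 5 UMIs of Gnal had more than 1 of Gnai2.

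In the control the pooled levels of the 7 neurons with Cnga2 and the 12 without differed for part of the cascade. Gnal stood at 664 and 37.0 CPM, Adcy3 at 171 and 10.6, Stoml3 at 3509 and 84.5 and S100a5 at 5960 and 5.28, while Gnai2 stood at 13.1 and 1664. S100a5 was found in 4 of the 7 neurons with Cnga2, at a median of 2 and up to 457 UMIs. The gaps were smaller for Cnga4 (65.7 and 42.3 CPM), Cngb1 (59.1 and 21.1) and Ano2 (98.6 and 63.4), with intervals that overlapped, and Rtp1 (197 and 217) and Rtp2 (112 and 148) were no higher in neurons with Cnga2. Beyond the Olfr-dominant neurons, 9 of the 19 kept barcodes with Cnga2 lay elsewhere. Of these, 6 were outside the neuron clusters with a single UMI each, and 3 were neurons that the receptor rule did not class as Olfr-dominant, among them a 3-month neuron of cluster 19 with 3 UMIs of Cnga2, 16 of Gnal and no Olfr UMI. Tfap2e was at 61.5 CPM (38.1 to 94.0) in Olfr-dominant neurons of the control, from 21 UMIs of which 20 were in 1 neuron without Cnga2, and at 326 (230 to 447) and 276 (192 to 384) in the mutants. The 7 control neurons with Cnga2 had 0 Tfap2e UMIs, and the mutant ones 6, and 10 and 5.

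Olfr genes as a whole were spread widely at low counts. The kept barcodes held 2392, 1080 and 1155 Olfr UMIs over 255, 171 and 147 genes, and 57.7%, 28.1% and 33.3% of these UMIs were in Olfr-dominant neurons. Olfr920, with the most UMIs of any Olfr gene, had its 477 in 394 barcodes of many classes. Another 30 barcodes outside the neuron clusters met the Olfr-dominant rule, 11, 11 and 8 a library, of which 0 had 3 or more of the 8 genes and 1 had Cnga2 or Gnal. Receptors of the Taar family, also used in the main epithelium, gave 0, 0 and 1 UMIs.

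V2R- over V1R-dominant neurons, with a 2-fold call and 20 UMIs over both, put 3 of 6 members lower in the control (13.6% of all genes were), 1 of 5 in the mutant at P10 (10.4%) and 2 of 6 in the 3-month mutant (13.5%). Rtp1 was lower in every library, at ratios of 0.0505 (0.0307 to 0.0782), 0.283 (0.197 to 0.395) and 0.408 (0.239 to 0.664), the last at -3.02 on the log2 scale without cluster 3. Rtp2 was lower in the control, at 0.369 (0.284 to 0.472), and not called in the mutants, at 0.729 (0.560 to 0.939) and 1.11 (0.820 to 1.50). Higher calls were 0 of 6, 0 of 5 and 1 of 6, where 4.75%, 2.80% and 6.66% of all genes were higher, and the 1 was Cngb1 at 3 months, at 2.24 (1.51 to 3.32) where the control had 0.621 (0.368 to 0.997) and the P10 mutant 1.11. Without cluster 3 that call was lost, at 0.23 on the log2 scale. Adcy3, at 0.309 in the control and 0.320 at 3 months, made up the other lower calls. Without cluster 3 its 3-month V1R- and V2R-dominant levels rested on 1 UMI each. Ano2 was between 1.21 and 1.58 in all 3 libraries, though without cluster 3 its 3-month ratio turned to -0.38 on the log2 scale. Cnga4 was between 0.920 and 1.60.

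**Figure D4:**
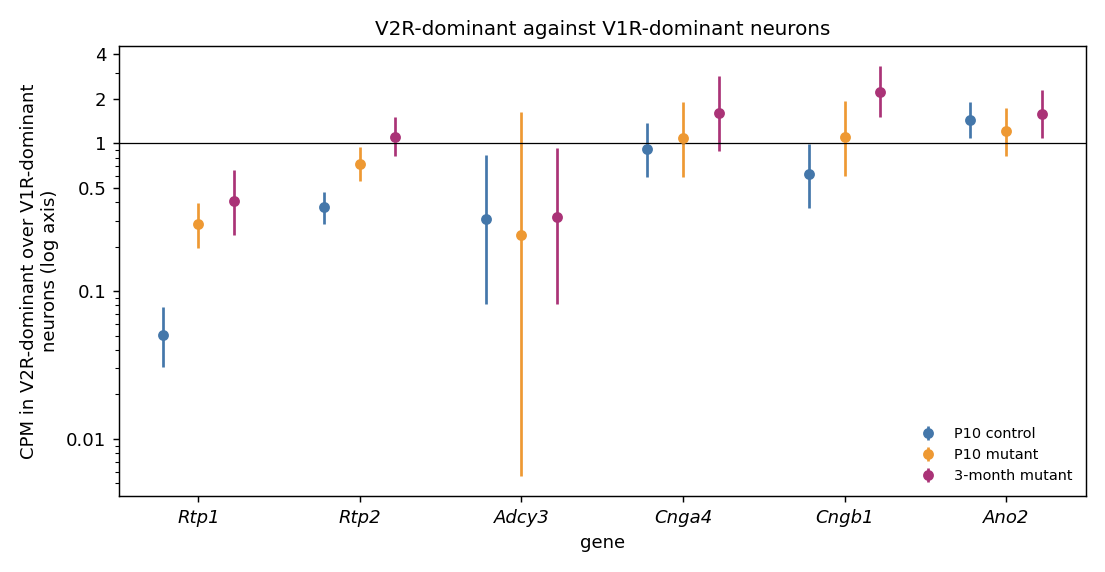
Ratio of CPM in V2R-dominant over V1R-dominant neurons (log axis) for 6 of the members, by library, with conditional exact 95% intervals. Rtp1 lies under 1 in every library and Cngb1 over 1 in the 3-month mutant.

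Between libraries, the P10 mutant is on both sides of what follows, so the comparisons are not independent. P10 mutant over control, V1R-dominant neurons had 0 of 6 members called higher (2.42% of all genes) and 0 lower (3.41%), with Adcy3 at 0.517 (0.252 to 0.977) and Rtp1 at 0.546 (0.487 to 0.610). V2R-dominant neurons had 1 of 5 higher (2.86%) and 0 lower (3.26%), the 1 being Rtp1 at 3.06 (1.74 to 5.55), with Rtp2 at 1.80 (1.28 to 2.52). Olfr-dominant neurons had 4 of 6 lower, where 14.0% of all genes were, but that class held 8 and 19 neurons. The 4 were Ano2 at 0.325 (0.0631 to 1.06), Cnga2 at 0.404 (0.103 to 1.15), Rtp2 at 0.455 (0.173 to 1.02) and Gnal at 0.461 (0.259 to 0.772). Of the 17 Gnal UMIs in the mutant, 16 came from 1 neuron. Neurons with Cnga2 were 1 of the 8 in the mutant and 7 of the 19 in the control, and the part of this make-up was not tested. 3-month over P10 mutant, V1R-dominant neurons had 1 of 6 higher (6.65%), Adcy3 at 2.81 (1.37 to 6.12; without cluster 3 the levels were 2.10 and 2.86 CPM, and the direction turned), and 1 lower (10.1%), Rtp1 at 0.341 (0.272 to 0.425), with Rtp2 at 0.557. In cluster 9 alone the V1R-dominant Rtp1 levels of these libraries, given above, were less than 2-fold apart. V2R-dominant neurons had 1 of 5 higher (5.53%), Cngb1 at 2.96 (1.72 to 5.35), and 1 lower (8.71%), Rtp1 at 0.493 (0.272 to 0.868). Olfr-dominant neurons had 1 of 3 higher (11.2%), Rtp2 at 2.10 (0.818 to 6.04). Depth and the counting program, Cell Ranger 4.0.0 at P10 and 6.0.1 at 3 months, moved with age, and their part in these ratios was not tested.

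Across 55 units of cell class and library, the pattern of the sum of the 8 was most like those of Aplp1 (Pearson r of log2(CPM + 1) 0.927), Cntn4 (0.926), Chga (0.910), Cartpt (0.910) and Fstl5 (0.905), among 16244 genes. Calb2, Gnb1, Gfy, Gng8 and Gm15631 followed, at 0.905, 0.899, 0.899, 0.896 and 0.895. Among the members, Cnga4, Ano2, Rtp1 and Rtp2 ran together with r of 0.88 to 0.97, Cngb1 joined them at 0.75 to 0.83, Cnga2 and Gnal were at 0.74, and Adcy3 was between -0.04 and 0.23 with all others. The genes most like each member split the same way: Cacng2, Gm19554 and Slc17a6 for Cnga4, Gm15631, Slc17a6 and Gm19554 for Ano2, Kcnn3, Ptprr and Fam217a for Cngb1, Gng3, Gfy and Chga for Rtp1, and Snph, Gfy and Chga for Rtp2, but Stoml3 (0.823), E330012B07Rik and Caly for Cnga2, E330012B07Rik, D830039M14Rik and Gm49937 for Gnal, and Bdh2, Hsd17b10 and mt-Nd2 for Adcy3 (0.638, 0.633 and 0.624). The units share libraries and depth, so these values are a description of the levels.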

How the data were processed

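Single cells of the VNO from 3 libraries (10x Genomics 3' v3.1) were measured, 1 library per group, and groups were taken from the labels. The authors deposited whole counts of UMIs per gene and barcode, not normalised, which per the file headers came from Cell Ranger 4.0.0 (both P10 libraries) and 6.0.1 (3-month library); per the labels the genome was mm10 and Seurat 3.2.3 was used. The study's mitochondrial limit of 5% was tried as an alternative to 10%. No deposited cell annotation was used here. Repeated symbols (40) were represented by their first entry.

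The kept barcodes were clustered in 1 set, with no integration step (Python 3.11.15, scanpy 1.11.5, leidenalg 0.10.2: 2000 variable genes, 30 principal components, 20 neighbours, Leiden resolution 1), with receptor, member and listed genes (1512) left out of the clustering, and clusters were named from marker lists. Doublets were kept: Scrublet marked 3, 1 and 0 barcodes, so the highest scores were left out as an alternative. Free RNA was not corrected. Levels are CPM from pooled counts with exact Poisson 95% intervals, shares have Clopper-Pearson intervals and ratios conditional exact binomial intervals; all cover counting error only. The ratio script was tested on simulated data. Total UMIs were 83870584, 80760046 and 70074800. The rule for named genes took all 8 members, receptor families, the 10 Olfr genes with the most UMIs in Olfr-dominant neurons, listed partners, and genes most like the members in pattern. The members and lists were chosen with earlier results of these data known. Alternatives covered filters, receptor thresholds, doublets, clustering, depth and fold limits.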

Additional observations from a re-analysis of the deposited data

Results flagged for a closer look

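The ratio of Cngb1 in V2R- over V1R-dominant neurons was 2.24 in the 3-month mutant and 0.621 in the control, on opposite sides of 1. Without cluster 3 the 3-month levels were 65.0 CPM in V1R- and 76.2 in V2R-dominant neurons, or 0.23 as a log2 ratio. Rtp1 in the P10 mutant over the control was 0.546 in V1R-dominant and 3.06 in V2R-dominant neurons. Neither difference was tested, since each side is 1 library. In barcodes outside the filters, Gnal was at 2.57 CPM in the P10 mutant (69 UMIs) against 1.62 (1.13 to 2.25, 35 UMIs) in the control and 1.25 in the 3-month mutant.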

How the results depend on the processing

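No paired analysis was possible because each group has 1 library. With the mitochondrial limit at 5%, Olfr-dominant neurons numbered 11 of the 19 in the control and, at P10 in the mutant, 2 (2.47% of classed neurons), none of the latter with Cnga2. The P10 mutant count was 3 with at least 10 receptor UMIs (2.54%) and 5 at 95% from 1 family, and the 3-month count 11 with at least 3 receptor UMIs. Summed CPM in Olfr-dominant neurons of the control (993) was 1292 at 5%, 868 and 1245 with 3 and 10 receptor UMIs, 880 at 60% from 1 family and 878 as a mean over barcodes. In V1R-dominant neurons of the control (562) it was 606 at 5%, 538 at 60%, 593 at 95%, 597 without doublets, 585 with libraries clustered alone, 456 with neurons taken by their genes, 663 without cluster 3 and 602 as a mean, and in V2R-dominant ones (170) 140 as a mean. In the P10 mutant, Olfr-dominant neurons (471) had 964 with 10 receptor UMIs, 694 at 95% and 614 as a mean, and V1R-dominant ones (400) 475 at 5%, 433 at 60%, 441 without doublets, 486 clustered alone, 288 by genes and 498 without cluster 3. In the 3-month mutant, Olfr-dominant neurons (520) had 355 with 3 receptor UMIs and 681 without cluster 3, and V1R-dominant ones (237) 212 at 5%, 207 by genes, 423 without cluster 3 and 262 as a mean. Of the 3 classes, Olfr-dominant neurons were highest in the control and 3-month mutant under every setting, but in the P10 mutant V1R-dominant neurons were higher at 5%, at 60%, clustered alone and without cluster 3. Thinned to 2000 UMIs, the median number of members per neuron was 1.00, 0 and 1.00 in Olfr-, 1.00, 0 and 0 in V1R- and 0 in all V2R-dominant neurons. Genes past the fold, Olfr-dominant over VSNs, went from 1632 to 3491 (2-fold) or 873 (50 UMIs) in the control, from 1914 to 3902 or 865 in the P10 mutant and from 1640 to 3487 or 671 at 3 months. At 4-fold, P10 mutant over control counts went from 788 to 156 (Olfr), 720 to 229 (V1R) and 543 to 139 (V2R), and 3-month over P10 mutant counts from 453 to 89, 1848 to 403 and 1157 to 234. Of 480 other member values 459 kept within the limits set, and 2 changed direction: the log2 ratio of Rtp2 in Olfr-dominant neurons over VSNs of the P10 mutant was 0.58 at 5%, and of Ano2 in V2R- over V1R-dominant neurons at 3 months -0.38 without cluster 3. The causes were not tested. Leaving out clusters 3 and 4 was chosen after seeing the data. Free RNA and few Olfr-dominant neurons limit the low values.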

Other observations

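Barcodes outside the filters (3407, 4908 and 3333) also held the genes found across receptor families. Rtp1, which helps Olfr receptors to the surface, was at 55.0, 10.8 and 5.70 CPM there and Rtp2 at 25.1, 9.66 and 5.93, while Cnga2 gave 3, 0 and 3 UMIs.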
